A study of Mus musculus with 12 samples.

Results

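The genes described here are 10 liver genes of nitrogen disposal and amino acid breakdown. *Cps1*, *Otc*, *Ass1*, *Asl* and *Arg1* encode the enzymes of the urea cycle, and *Tat*, *Tdo2*, *Sds*, *Got1* and *Gls2* encode enzymes that open the breakdown of amino acids. They were taken from a list of names. All non-control probes whose RefSeq record belongs to one of them were used, which gave 12 of 39429 probes and 10 of the 20283 genes named on the array. *Otc* and *Ass1* have 2 probes each and the others have 1. On each of the 12 arrays, all 12 probes passed the scanner's test for signal above background in Cy3 and in Cy5, and no spot was saturated. In RefSeq's annotation of GRCm38.p6 the urea cycle genes lie as follows, *Cps1* at chr1:67122426-67231267, *Otc* at chrX:10252230-10321024, *Ass1* at chr2:31470270-31520670, *Asl* at chr5:130011258-130024381 and *Arg1* at chr10:24915207-24927470. Of the others, the annotation places *Tat* at chr8:109986078-109999804, *Tdo2* at chr3:81958412-81975728, *Sds* at chr5:120476547-120483932, *Got1* at chr19:43499752-43524605 and *Gls2* at chr10:128194635-128210004.

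Male *db*/*db* mice, 8 weeks-old, lack a working leptin receptor and become obese and diabetic. Animals of 3 groups received MgH2, which gives off H2 when it meets water, by stomach gavage once a day for 1, 3 or 7 days. The labels give the dose as 0.9 mg/kg, which differs from the dose in the study's methods. Their controls received Mg(OH)2. Animals of the fourth group drank H2-water, with H2 at 0.8 mM, for 14 days, and their controls drank degassed water. The mice behind all 12 arrays, controls included, carried the *db*/*db* genotype, and none of these arrays holds wild-type liver. Each group has 3 two-color arrays, and each array compares liver RNA pooled from 3 treated mice (Cy5) with RNA pooled from 3 control mice (Cy3). Because the RNA was pooled, the spread is that between pools and not between mice. The dyes were never swapped, so a probe that favors a dye shifts its ratio at a single day. That shift cancels in a difference between days as far as it is the same on the arrays of both days.

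The urea cycle turns ammonia and the nitrogen of aspartate into urea. *Cps1* and *Otc* act in the mitochondrion, and *Ass1*, *Asl* and *Arg1* complete the cycle in the cytosol. Amino groups reach the cycle through transaminases such as *Got1*, which makes aspartate from oxaloacetate and glutamate. In liver these genes are known to respond to glucagon, glucocorticoids, fasting and dietary protein, and most of them are strongest in hepatocytes near the portal vein.

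The liver label was checked with cell markers. All 7 hepatocyte markers were above background on the MgH2 arrays and 6 or 7 of them on the H2-water arrays. Over the 12 arrays, 51.8% to 56.5% of the spots passed that test in both dyes, and the total of Cy5 over that of Cy3 ran from 1.01 to 1.03. The H2-water arrays lie on a slide of their own and were read with another version of the extraction software, so the regimen and the slide cannot be told apart. Arrays with the same replicate number at 1, 3 and 7 days deviated together. The correlation of their deviations ran from 0.368 to 0.655 for the ratios and from 0.322 to 0.671 for the Cy3 channel alone, over 9 pairs. The labels do not say whether the same control pools were used on several days, and the 3 MgH2 groups are not read as independent of each other.

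The members' values moved with the day of treatment. The median log2 ratio over the 10 genes, treated over control, was -0.16, -0.18 and -0.03 on the 3 arrays of 1 day. It was 0.13, 0.15 and 0.05 at 3 days, and 0.10, 0.15 and 0.20 at 7 days. After 14 days of H2-water it was -0.02, -0.16 and -0.08. The members thus lay mostly below the control at 1 day, mostly above it at 3 and 7 days and mostly below it again with H2-water, while 48.8% to 51.8% of the probes above background on all arrays lay above 0 on each array.

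**Figure D1:**
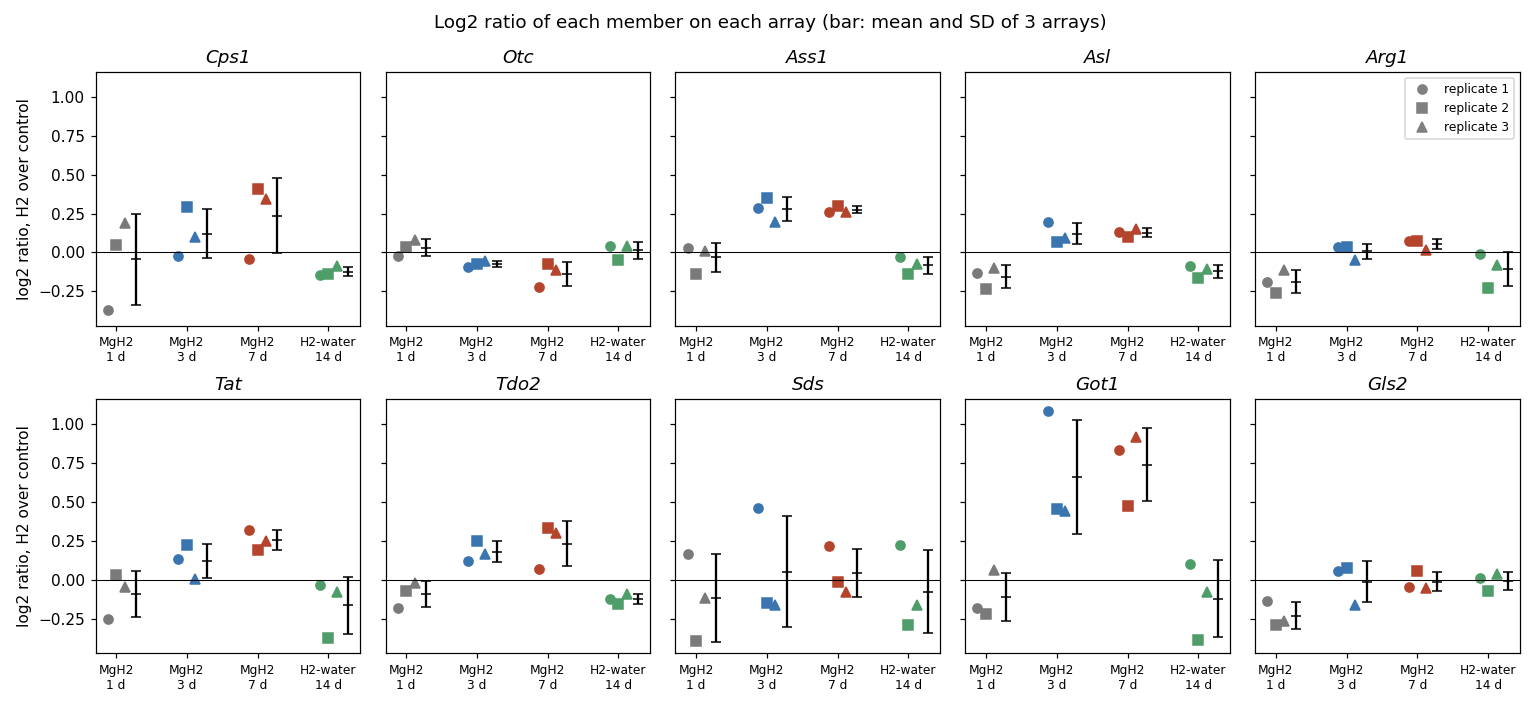
Log2 ratio of treated over control (vertical axis) for each of the 10 genes on each of the 12 arrays, by group; marker shape gives the replicate and the bar the mean and SD of 3 arrays. *Got1* stands highest at 3 and 7 days, with values from 0.44 to 1.09, and *Ass1* lies above 0 on all 6 of those arrays.

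Gene by gene, the group means were tested against 0 with limma over all probes above background, and a gene was called at an adjusted P under 0.05. At 3 days, 3 of 10 genes were called higher (*Ass1*, *Tdo2* and *Got1*) and 0 lower, where 11.7% of all tested probes were higher and 10.5% lower. At 7 days, 5 were higher (*Ass1*, *Asl*, *Tat*, *Tdo2* and *Got1*) and 1 lower (*Otc*), against 14.8% and 13.8% of all probes. At 1 day, 0 were higher and 3 lower (*Asl*, *Arg1* and *Gls2*), against 4.76% and 3.86%. At 14 days no gene was called, against 4.79% higher and 3.67% lower, and 3 of 10 had an unadjusted P under 0.05, against 24.1% of all probes.

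On all 3 arrays of a day together, 0 members lay above 0 and 4 below it at 1 day, against 22% and 22.4% of all probes. The numbers were 5 and 1 at 3 days, against 26.6% and 26.3%, and 6 and 1 at 7 days, against 30.5% and 27.9%. After 14 days they were 0 and 6, against 26.3% and 27.7%.

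The counts of calls depend on which probes enter the estimate of the spread, and that choice was made after the members' results had been seen. The reported fit leaves out probes that are dim in all 4 groups. With the spread estimated over all probes, dim ones included, the counts were 0 at 1 day, 2 at 3 days, 4 at 7 days and 0 at 14 days. In that fit, 461 of 19670 tested probes were higher and 233 lower at 1 day. The numbers were 1623 and 1439 of 19427 at 3 days and 2253 and 2093 of 19470 at 7 days. At 14 days they were 528 and 301 of 20429. The members called under both fits were *Ass1* and *Got1* at 3 days and *Ass1*, *Tat*, *Tdo2* and *Got1* at 7 days. All 3 calls at 1 day, that of *Tdo2* at 3 days and those of *Asl* and *Otc* at 7 days rest on the narrower choice. For genes outside the members, named further below, calls and adjusted P values come from the reported fit alone. Whether those calls hold with all probes in the fit is not given here.

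**Figure D2:**
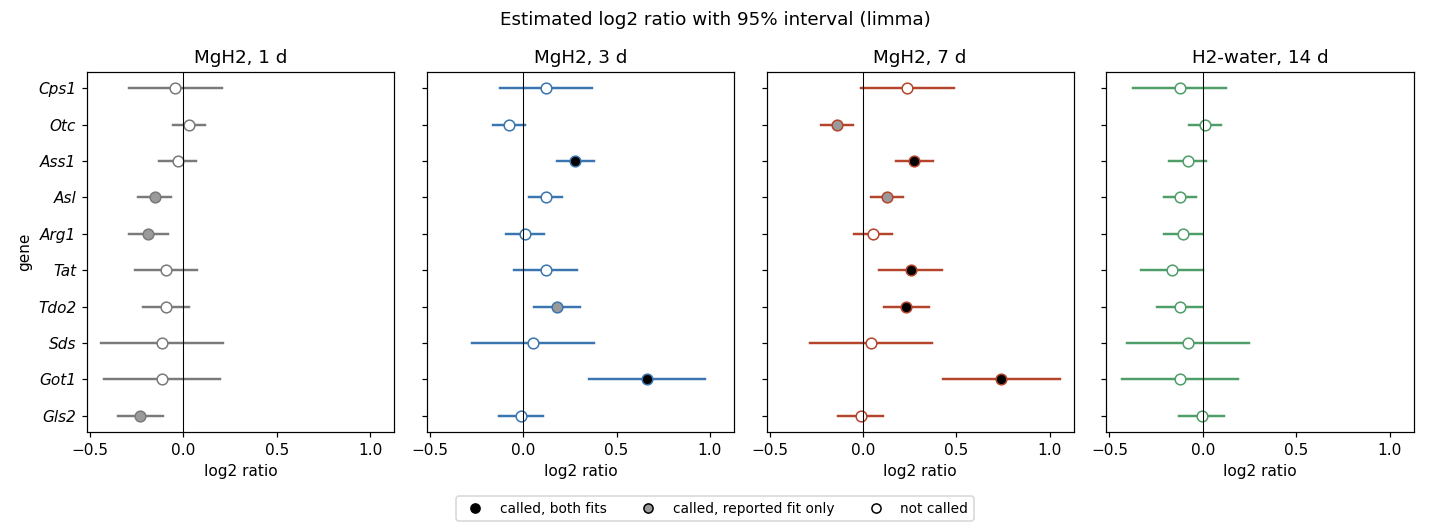
Estimated log2 ratio with its 95% interval (horizontal axis) for each gene in the 4 groups, from limma over 3 arrays each. Black points were called under both choices of probes for the spread, grey points under the reported choice only and open points under neither; *Got1* and *Ass1* are black at 3 and 7 days.

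*Got1*, the cytosolic aspartate aminotransferase, had the largest ratios of the 10 genes. Its log2 ratio was 1.09, 0.46 and 0.44 on the arrays of 3 days. It was 0.83, 0.47 and 0.92 at 7 days. All 6 arrays lay above every array of 1 day, which gave -0.18, -0.22 and 0.06, and above those of H2-water, which gave 0.10, -0.39 and -0.08. The mean at 3 days was 0.66 ± 0.37 (SD, n = 3), a 1.58-fold difference (limma, adjusted P = 0.0102, or 0.0168 with all probes in the fit). The mean at 7 days was 0.74 ± 0.24 (SD, n = 3), a 1.67-fold difference (limma, adjusted P = 0.0042, or 0.00702). By size of the ratio, *Got1* was number 162 from the top of 19427 probes at 3 days and number 144 of 19470 at 7 days. The first array of 3 days decided that call. Without it the log2 ratio was 0.45, with an adjusted P of 0.053 in limma, while at 7 days the gene was called with any 1 array of that day left out.

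The channels show where the difference in *Got1* lay. The processed Cy3 signal of the control pools was between 22222 and 28907 on the arrays of 3 and 7 days. The Cy5 signal of the treated pools was between 34300 and 49923 on the same arrays. The lowest treated signal thus lay above the highest control signal, where the control pools of the 2 days may not be separate. *Got2*, the mitochondrial enzyme of the same reaction, was not above the control at 3 and 7 days. Its log2 ratio was below 0 at 1, 3 and 7 days, at -0.23, -0.16 and -0.12 (limma, adjusted P = 0.00504, 0.0101 and 0.03). It was thus least negative at 7 days. Without a dye swap, treatment and a dye effect cannot be told apart in these values.

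**Figure D3:**
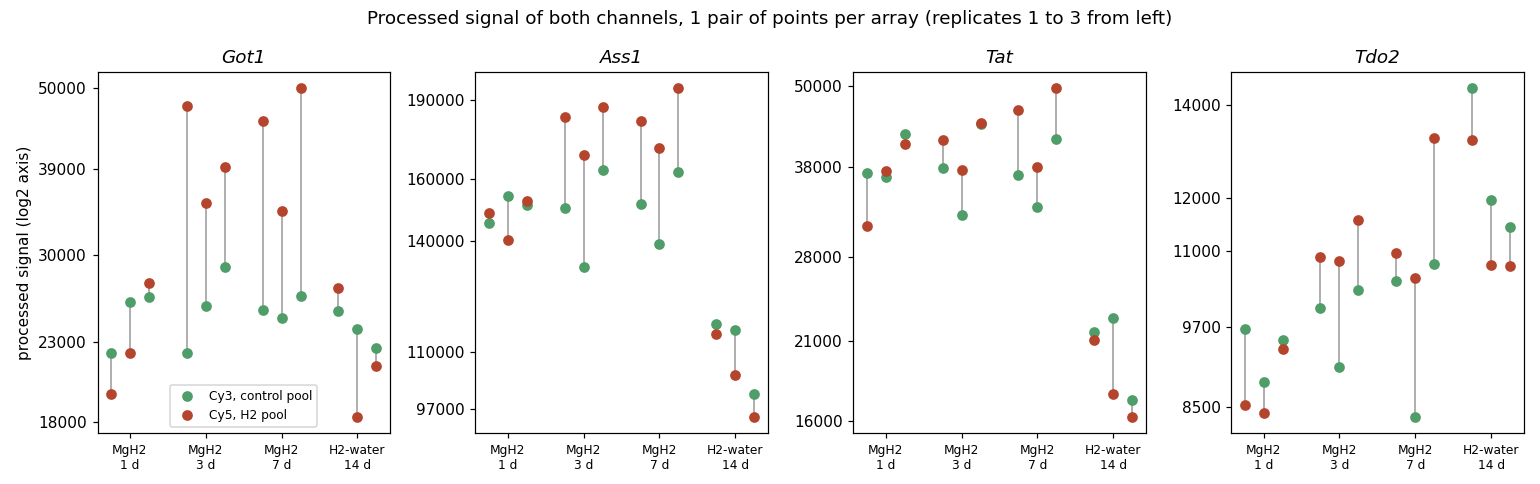
Processed signal (vertical axis, log2 scale) of the control pool in Cy3 and the treated pool in Cy5 on each of the 12 arrays, for the 4 genes called at 7 days under both choices of probes; each gene has its own axis. For *Got1* all treated pools of 3 and 7 days lie above all control pools of those days.

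In the urea cycle, *Ass1*, which joins citrulline and aspartate, was called at both 3 and 7 days. Its log2 ratio was 0.29, 0.35 and 0.20 on the arrays of 3 days and 0.26, 0.30 and 0.26 at 7 days. It was 0.03, -0.14 and 0.01 at 1 day. The 6 later arrays of MgH2 did not overlap with those of 1 day. The mean was 0.28 ± 0.08 (SD, n = 3) at 3 days, or 1.21-fold (limma, adjusted P = 0.00279), and 0.28 ± 0.02 (SD, n = 3) at 7 days, also 1.21-fold (limma, adjusted P = 0.00191). With all probes in the fit the adjusted P values were 0.00869 and 0.00569, and both calls held without any 1 array of their day. The second probe of *Ass1* gave 0.23 at 3 days and 0.26 at 7 days (limma, adjusted P = 0.00787 and 0.00268). With each array centred on its median, which lies up to 0.13 from 0 over all probes, *Ass1* at 7 days was 0.16 and was not called. With normexp background correction and loess it was 0.50 at 3 days and 0.49 at 7 days.

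*Asl* splits the product of *Ass1* into arginine and fumarate. Its log2 ratio was -0.13, -0.24 and -0.10 at 1 day. It was 0.20, 0.07 and 0.09 at 3 days and 0.13, 0.10 and 0.15 at 7 days. All arrays of 1 day thus lay below 0 and all those of 3 and 7 days above it. The mean at 7 days was 0.13 ± 0.03 (SD, n = 3), or 1.09-fold (limma, adjusted P = 0.0351), and at 1 day -0.15 ± 0.07 (SD, n = 3), or 0.898-fold (limma, adjusted P = 0.039). With all probes in the fit the adjusted P values were 0.0766 and 0.0995, and both calls were lost without any 1 array of their day. Centring arrays on their median left *Asl* at 0.01 at 7 days. With replicate number as a block, *Asl* was also called at 3 days (adjusted P = 0.0241). *Arg1*, which releases urea from arginine, was -0.19, -0.26 and -0.11 at 1 day, a mean of -0.19 or 0.878-fold (limma, adjusted P = 0.0352, or 0.0825 with all probes). Between 3 and 7 days its 6 values lay between -0.05 and 0.08.

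*Cps1* and *Otc* encode the mitochondrial steps. The log2 ratio of *Cps1*, which takes up ammonia, was -0.37, 0.05 and 0.19 at 1 day, -0.02, 0.29 and 0.10 at 3 days and -0.04, 0.41 and 0.34 at 7 days, so the first array was the lowest in each MgH2 group. No group mean passed the test as reported, and the 95% interval at 7 days ran from -0.01 to 0.49. With replicate number as a block, *Cps1* was called higher at 7 days (limma, adjusted P = 0.0425). *Otc*, which makes citrulline, gave -0.22, -0.08 and -0.11 at 7 days, a mean of -0.14 ± 0.08 (SD, n = 3) or 0.909-fold (limma, adjusted P = 0.025, or 0.0586 with all probes in the fit), and the call was lost without the first or the third array. Its second probe, printed in 10 spots, gave -0.15, 0.01 and -0.08 there and was not called (adjusted P = 0.228). The second probe was higher at 14 days, at 0.18 ± 0.05 (SD, n = 3; limma, adjusted P = 0.03), where the first gave 0.01, so the 2 probes of *Otc* disagree.

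*Tat* and *Tdo2* start the breakdown of tyrosine and of tryptophan, and both are textbook glucocorticoid-responsive liver genes. The log2 ratio of *Tat* was 0.14, 0.22 and 0.00 at 3 days and 0.32, 0.19 and 0.25 at 7 days. That of *Tdo2* was 0.12, 0.25 and 0.17 at 3 days and 0.07, 0.33 and 0.30 at 7 days. Both were above 0 on all 6 arrays, whereas *Tdo2* lay below 0 on all 3 arrays of 1 day. At 7 days *Tat* had a mean of 0.26 ± 0.06 (SD, n = 3), or 1.19-fold (limma, adjusted P = 0.0301, or 0.0462 with all probes in the fit). *Tdo2* had 0.23 ± 0.14 (SD, n = 3), or 1.18-fold (limma, adjusted P = 0.0114, or 0.0232). At 3 days *Tdo2* had 0.18 ± 0.07 (SD, n = 3; limma, adjusted P = 0.0398, or 0.0706), and that call was lost without any 1 array of 3 days. The call of *Tat* was lost without any 1 array of 7 days, with adjusted P values of 0.0671 to 0.141, and that of *Tdo2* was lost without the second or the third, at 0.0776 and 0.0817. With arrays centred on their median neither was called at 7 days, at 0.14 and 0.12.

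*Sds*, which makes pyruvate from serine, and *Gls2*, the liver glutaminase that frees ammonia from glutamine, were not called at 3, 7 or 14 days. The first array of *Sds* was the highest in each group, at 0.17, 0.46, 0.22 and 0.22 at 1, 3, 7 and 14 days, and its 8 other arrays lay between -0.40 and -0.02. *Gls2* was -0.13, -0.29 and -0.27 at 1 day, a mean of -0.23 ± 0.08 (SD, n = 3) or 0.852-fold (limma, adjusted P = 0.0285, or 0.0647 with all probes in the fit). Its 9 values of the other days lay between -0.16 and 0.07. None of the 3 calls at 1 day held without any 1 array of that day.

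For the 4 genes called at 7 days under both choices, the 250 bases before a transcript start are shown, since these genes moved together; RefSeq's table of promoters (GRCm38.p6) had an entry for 5 of the 10 members. The window of *Tat* lies inside the gene range given above, so it precedes a start within that range and not its first base. Capitals mark CCAAT, which reads ATTGG on the other strand, and TATAAA, searched on both strands.
*Got1*, chr19:43524606-43524855, minus strand: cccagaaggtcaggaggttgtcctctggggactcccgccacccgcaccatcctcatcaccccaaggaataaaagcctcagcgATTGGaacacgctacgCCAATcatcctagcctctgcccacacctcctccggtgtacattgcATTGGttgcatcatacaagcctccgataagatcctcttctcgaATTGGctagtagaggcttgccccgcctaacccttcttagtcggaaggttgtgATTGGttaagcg
*Ass1*, chr2:31470020-31470269, plus strand: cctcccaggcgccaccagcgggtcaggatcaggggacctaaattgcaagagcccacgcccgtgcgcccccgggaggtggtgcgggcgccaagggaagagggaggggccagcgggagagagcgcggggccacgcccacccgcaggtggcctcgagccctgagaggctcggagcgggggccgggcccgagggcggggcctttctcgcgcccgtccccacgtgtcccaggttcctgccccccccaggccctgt
*Tat*, chr8:109990186-109990435, plus strand: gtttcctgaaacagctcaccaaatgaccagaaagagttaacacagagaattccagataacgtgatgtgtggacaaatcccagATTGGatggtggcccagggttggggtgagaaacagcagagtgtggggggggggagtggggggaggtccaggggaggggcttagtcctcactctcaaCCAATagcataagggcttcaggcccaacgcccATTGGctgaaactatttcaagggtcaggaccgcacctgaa
*Tdo2*, chr3:81975729-81975978, minus strand: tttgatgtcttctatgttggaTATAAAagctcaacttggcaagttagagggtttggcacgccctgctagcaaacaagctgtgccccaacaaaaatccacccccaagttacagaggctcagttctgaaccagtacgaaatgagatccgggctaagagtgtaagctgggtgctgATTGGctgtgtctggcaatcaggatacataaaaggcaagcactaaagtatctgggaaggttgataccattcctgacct
The motifs were chosen after the members' values were known. *Got1* had 5 matches to CCAAT, *Tat* 3, *Tdo2* 1 and *Ass1* 0, and no match overlapped another. CCAAT was found in 33.8% and TATAAA, here in *Tdo2* alone, in 12.4% of 32851 promoter windows of this length. AGAACA, which is part of the glucocorticoid response element, and TGACG, which is part of the cAMP response element, were searched on both strands too. They had no match in any of the 4 windows, against 16.1% and 17.8% of all windows. *Ass1* differed from the others in base composition, with 75.6% G and C against 46.4% to 54.4%.

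In the differences between days, a probe's dye bias cancels as far as it is the same on the arrays of both days. Shifts of whole arrays do not cancel, and the arrays' median log2 ratios over all probes ran from -0.12 to 0.13. Between 3 days and 1 day no member was called in limma, and 0% of 19223 probes were. The unadjusted P was under 0.05 for 6 of 10 members, and for 14.8% of all probes. The arrays of 3 days all lay above those of 1 day for 5 members and all below for 1, against 10.4% and 8.86% of all probes. Between 7 days and 1 day, 4 of 10 members were called higher and 0 lower, against 2.81% and 3.29% of all probes. *Got1* differed by 0.86 on the log2 scale (SE 0.20), *Tdo2* by 0.33 (SE 0.08), *Ass1* by 0.31 (SE 0.06) and *Asl* by 0.28 (SE 0.06), with adjusted P values of 0.0375, 0.0398, 0.026 and 0.0237. None of the 4 was called with all probes in the fit. The arrays of 7 days all lay above those of 1 day for 7 members and all below for 1, *Otc*, against 15.2% and 13.2% of all probes. The arrays of 1 day and those of 7 days share no slide, so slide and length of treatment cannot be told apart between them directly. With slide as a fixed block among the MgH2 arrays none was called either, while *Got1* differed by 1.41. That estimate links the 2 days through the arrays of 3 days, of which only the first lies on the slide of 1 day. Leaving out 1 array kept 0 to 2 of the 4 calls. With replicate number as a block, *Arg1* was called too (limma, adjusted P = 0.0484). On the slide that holds all arrays of 1 day and the first of 3 days, *Got1* was 1.20 and *Ass1* 0.32 above the mean of 1 day. Between 7 and 3 days no member was called (0% of all probes), and *Got1* differed by 0.08, with a 95% interval from -0.36 to 0.52.

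H2-water for 14 days differs from MgH2 in route, carrier, dose and length, so differences from it compare whole regimens on different slides. The log2 ratio was below 0 on all 3 arrays for 6 of the 10 genes. *Tdo2* gave -0.12, -0.16 and -0.09 there and *Cps1* -0.14, -0.14 and -0.09. *Asl* gave -0.09, -0.17 and -0.11, a mean of -0.12 or 0.919-fold (limma, adjusted P = 0.0871, or 0.0397 with replicate number as a block). Against 1 day of MgH2 no member was called, where 0.00534% of the probes were higher and 0.016% lower. Against 7 days, a comparison added after the values had been seen, *Ass1*, *Asl*, *Tdo2* and *Got1* were lower and 0 members higher, against 2.59% and 2.87% of all probes. *Got1* was 0.86 lower there, at 0.550-fold (limma, adjusted P = 0.0397), and *Tat* 0.42 lower (adjusted P = 0.0501). Against 3 days, added likewise, *Ass1* alone was called lower, where 0.744% of all probes were lower and 0.809% higher. With all probes in the fit no member was called in either of these comparisons; for *Got1* the adjusted P was then 0.0693 against 7 days.

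The other genes of amino acid metabolism were mostly lower among those called at 1 day and split at 3 and 7 days. The counts for these genes and for the later lists come from the reported fit alone. Of 87 further genes in 4 lists, 83 were tested at 1, 3 and 7 days. At 1 day 1 was higher and 14 lower, where 4.76% of all probes were higher and 3.86% lower. At 3 days 10 were higher and 11 lower, against 11.7% and 10.5%, and at 7 days 17 were higher and 17 lower, against 14.8% and 13.8%. Their median log2 ratio was -0.08, 0.00 and 0.01, where that of all tested probes was within 0.01 of 0 at each of these days. After 14 days, 3 of 82 were higher and 4 lower, against 4.79% and 3.67%.

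Of 16 tested genes of nitrogen handling, 2 were higher and 2 lower at 3 days and 3 higher and 2 lower at 7 days, against the shares of all probes just given. *Slc25a15*, the mitochondrial ornithine carrier, was 0.39, 0.25 and 0.27 at 3 days and 0.29, 0.25 and 0.45 at 7 days (limma, adjusted P = 0.018 and 0.00903). *Slc7a2*, a carrier of basic amino acids, was higher too, by 0.36 and 0.47 (limma, adjusted P = 0.0198 and 0.00445). *Slc38a3*, a carrier of glutamine, was lower at 3 days, at -0.36 (limma, adjusted P = 0.0452), and *Slc38a4*, a carrier of neutral amino acids, was higher at 7 days, at 0.32 (adjusted P = 0.0467). Both calls lie close to the threshold of the reported fit, and their values with all probes in the fit are not given here. *Nags*, which makes the activator of *Cps1*, was not called at any day, with means from -0.13 to 0.04. *Glul*, the glutamine synthetase of the hepatocytes around the central vein, was -0.45, -0.32 and -0.33 at 7 days, or 0.776-fold (limma, adjusted P = 0.013).

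In aromatic amino acid breakdown, *Acmsd*, on the tryptophan route after *Tdo2*, was higher at 3 and 7 days, at 0.62 and 0.47 (limma, adjusted P = 0.0081 and 0.0204). Other steps of that route went both ways at 7 days. *Kyat3* was higher, at 0.39 (limma, adjusted P = 0.00993). *Kynu* and *Qprt* were lower, at -0.31 and -0.28 (adjusted P = 0.00972 and 0.000885). *Qprt* was also lower at 1, 3 and 14 days, at -0.14, -0.23 and -0.15 (adjusted P = 0.0477, 0.00309 and 0.0396). In the part of this fall that all days share, treatment and a dye effect cannot be told apart without a dye swap. Over this list, 12 of 20 genes were called at 7 days, 5 higher and 7 lower, where 14.8% and 13.8% of all probes were.

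For lysine and the branched-chain amino acids, *Aass*, which starts lysine breakdown, was higher at 3 and 7 days, at 0.48 and 0.46 (limma, adjusted P = 0.00229 and 0.0018). *Bckdk*, the kinase that inhibits the branched-chain dehydrogenase, was lower, at -0.38 and -0.40 (adjusted P = 0.00506 and 0.00259). *Bckdhb*, a subunit of that dehydrogenase, was higher, at 0.28 and 0.32 (adjusted P = 0.00802 and 0.00325). It was also higher after H2-water, at 0.27 (adjusted P = 0.0194). *Aldh6a1*, at -0.18 and -0.15, and *Gcdh*, at -0.12 and -0.18, were lower (adjusted P = 0.00918, 0.0178, 0.0441 and 0.00575). Of the 22 tested genes of this list, 5 were higher and 3 lower at 3 days, and 4 and 4 at 7 days. The shares of all probes were 11.7% and 10.5% at 3 days and 14.8% and 13.8% at 7 days. In the methionine cycle, *Ahcy* and *Mat1a* were higher at 7 days, at 0.46 and 0.31, and *Csad*, of taurine synthesis, was lower, at -0.48 (adjusted P = 0.00191, 0.00725 and 0.00408). Of the 25 tested genes of the list that holds *Ahcy*, *Mat1a* and *Csad*, 5 were higher and 4 lower at 7 days, against 14.8% and 13.8%.

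Of 14 listed regulators, 9 were called at 3 days, 6 higher and 3 lower, and 9 at 7 days, again 6 higher and 3 lower. The shares of all probes were 11.7% higher and 10.5% lower at 3 days and 14.8% and 13.8% at 7 days. *Ppargc1a*, a coactivator of fasting genes, was 0.42, 0.89 and 0.43 at 3 days and 0.98, 0.60 and 0.74 at 7 days (limma, adjusted P = 0.0374 and 0.00913). *Klf15*, a factor known to drive amino acid catabolism, was at 0.34, 0.40 and 0.36 at 1, 3 and 7 days (adjusted P = 0.0394, 0.0109 and 0.0122). These values are much alike, and without a dye swap treatment and a dye effect cannot be told apart in them. The reported fit called 936 of 19670 probes higher and 760 lower at 1 day. With all probes in the fit the numbers were 461 and 233. Whether *Klf15* at 1 day is among the calls that remain is not given here. At 1 day 3 of the 14 regulators were higher and 1 lower, against 4.76% and 3.86% of all probes. *Nr3c1*, the glucocorticoid receptor, was lower at 3, 7 and 14 days, at -0.23, -0.28 and -0.20 (adjusted P = 0.00202, 0.000544 and 0.00916). *Cebpa*, a factor that maintains the hepatocyte program, was lower at all 4 days, at -0.30, -0.48, -0.50 and -0.23 (adjusted P = 0.0036, 7.9e-05, 5.6e-05 and 0.0109). In the part of this fall that all days share, treatment and a dye effect cannot be told apart either. The glucagon receptor *Gcgr*, *Cebpb* and *Foxo1* were not called at any of the 4 days.

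**Figure D4:**
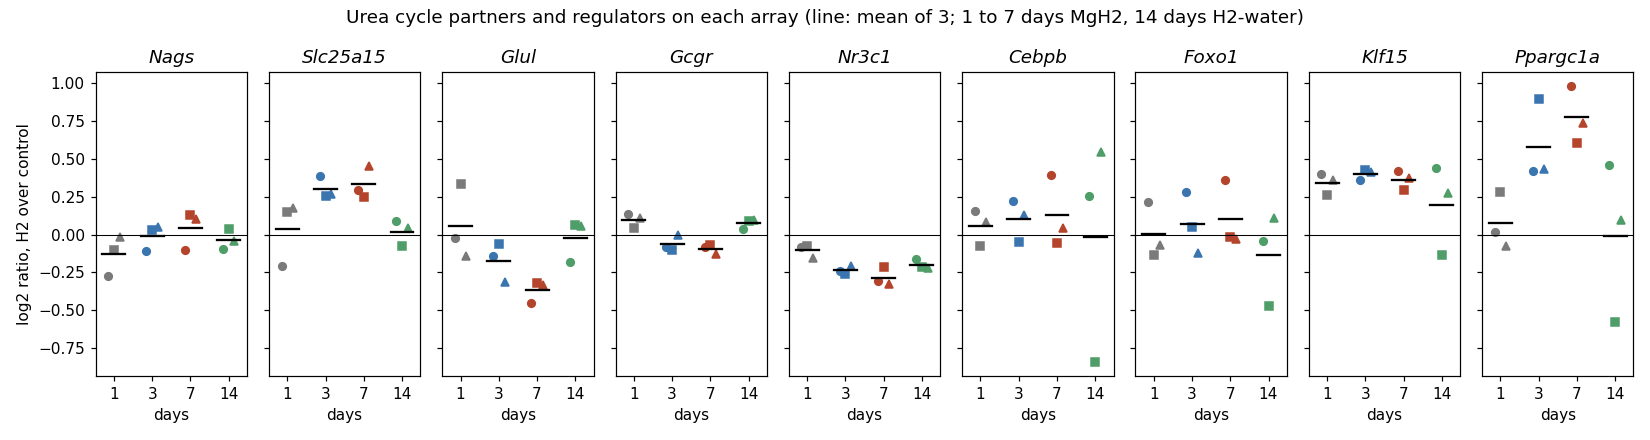
Log2 ratio of treated over control (vertical axis) for 3 genes of nitrogen handling and 6 regulators on each of the 12 arrays, by day; the line is the mean of 3 arrays and marker shape gives the replicate as in the plot of the members. *Slc25a15*, *Klf15* and *Ppargc1a* lie above 0 and *Nr3c1* below 0 on all 6 arrays of 3 and 7 days.

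Genes known to follow fasting, glucagon or glucocorticoids had a median log2 ratio of 0.31 at both 3 and 7 days. Single genes ran from -0.56 to 0.79 at 3 days and from -0.49 to 1.02 at 7 days. The median was -0.07 at 1 day and -0.26 after 14 days of H2-water. Of 11 listed, *Mt1*, *Fkbp5* and *Pck1* were higher at 3 and 7 days and 0 were lower, against 11.7% and 14.8% of all probes higher. *Fkbp5* stood at 0.77 and 0.80 (limma, adjusted P = 0.000918 and 5e-04) and *Pck1*, of gluconeogenesis, at 0.31 on both days (adjusted P = 0.024 and 0.0172). *Pck1* was lower after 14 days, at -0.39 (adjusted P = 0.0171). The other 8 were not called at any of the 4 days. At 7 days, where 14.8% of all probes were higher and 13.8% lower, 1 of 12 periportal genes was higher and 2 were lower, a share near that of all probes. Of 10 tested pericentral genes, 1 was higher and 3 lower, with *Cyp2e1* at 0.28 and *Lgr5* at -0.78 (limma, adjusted P = 0.00921 and 0.00357). Of 12 clock genes, 0 were called at 1, 3 and 14 days and 1 was higher at 7 days.

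Some markers of other cells were called on the same days. Bulk arrays cannot tell fewer cells of a type from less RNA per cell. The summed signal of 6 leukocyte and Kupffer cell markers, of which 5 were above background, had log2 ratios of -0.35 to -0.26 at 3 days and -0.48 to -0.32 at 7 days, against -0.22 to 0.05 at 1 day and -0.15 to 0.18 at 14 days. That of the 7 hepatocyte markers was -0.07 to 0.17 at 3 days and 0.03 to 0.24 at 7 days. By gene, the shares of all probes were 11.7% higher and 10.5% lower at 3 days and 14.8% and 13.8% at 7 days. Of 5 tested leukocyte and Kupffer cell markers, 1 was higher and 1 lower at 3 days and 2 were lower at 7 days. Of 5 stellate cell and fibroblast markers, 3 were lower on each of these days, with a median log2 ratio of -0.41 and -0.39. Their summed signal fell less clearly, with log2 ratios of -0.33 to -0.10 at 3 days and -0.21 to 0.10 at 7 days. At 1 day it gave -0.16 to 0.16, which overlaps with both. The summed signal of 4 red blood cell markers varied widely between pools, from -0.35 to 0.56 at 3 days and from -0.82 to 0.60 at 7 days. Of 4 endothelial markers, 2 were higher at 3 days and 1 at 7 days, and of the 7 hepatocyte markers, 1 and 3 were higher. The part of these shifts in the members' ratios was not tested.

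Across the 12 arrays, the gene whose log2 ratio was most like that of *Ass1* was *Dleu2* (Pearson r = 0.994), followed by *Ndufb5* (r = 0.965). For *Got1* these were *Abhd17b* (r = 0.969) and *Asl* (r = 0.961), for *Tdo2* *Ahcy* (r = 0.962) and *Gsto1* (r = 0.957), and for *Tat* *Lurap1l* (r = 0.969) and *Cdc37* (r = 0.964). *Asl* was most like *Tmtc2* (r = 0.967) and then *Got1*, *Arg1* most like *Dbt* (r = 0.962) and *Gm10639* (r = 0.944), *Otc* most like *Gpat2* (r = 0.941) and *Klhl22* (r = 0.938), and *Gls2* most like *Slc22a18* (r = 0.935) and *Gstt2* (r = 0.934). These are the highest of 18411 probes each. The arrays share groups, dyes and slides, so the values describe likeness only.

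By the methods' t-test on the processed signals as deposited, without adjustment, 2 members passed at 1 day (lower), 4 at 3 days (3 higher and 1 lower), 2 at 7 days (higher) and 0 at 14 days, against 14.5%, 12.6%, 18.8% and 6.8% of all probes. The study's methods state scaling by the total intensity of each array and do not mention one per channel. With each channel divided by its own total, the numbers were 2 (lower), 3 (higher), 3 (2 higher and 1 lower) and 2 (lower). The shares of all probes were then 16.4%, 20.3%, 25.4% and 20.7%. After Benjamini-Hochberg adjustment on the signals as deposited 0 passed at any day, against 0.519%, 0.00515%, 0% and 0%.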

How the data were processed

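The authors hybridized pooled liver RNA to 12 two-color Agilent arrays and deposited the scanner output. Its processed intensity values had been background-corrected and normalized between dyes by Feature Extraction (10.7.3.1 for H2-water and 10.10.1.1 for MgH2, per the file headers). The deposited log10 ratio and the deposited table of log2 ratios agree to within 1.39e-06 on the log2 scale. Raw median intensities served one alternative. The p-value columns that the authors deposited come from single arrays and were not used.

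Control and outlier spots were left out, and log2 Cy5 over Cy3 processed signals were averaged over the spots of a probe. Of the 39429 probes, 26761 matched a gene through RefSeq. A gene is represented by its brightest probe. Group means of all arrays were estimated in limma (3.58.1, under R 4.3.3). Tests were two-sided, and P values were adjusted by Benjamini-Hochberg across those probes that passed the background test in both dyes on every array of a comparison. The fit was tested on simulated data.

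The members and lists were chosen with earlier results of these data known. The probes that enter the fit were not set in the original plan. A first fit used all probes. After its members' results had been seen, 4 choices in all were looked at, and the fit reported here, on the 21520 probes above background on all arrays of at least 1 group, was taken because low-signal probes are usually left out before the spread is estimated. It calls more members than the first fit, so the counts of both are given.

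Genes outside the members were named by rule: at most 3 of the largest rises and falls per list and day, plus 9 named whatever their value. One gene that the rule names is not reported here. The number of arrays limits the precision. The labels do not say that pools came from separate experiments, so P values measure the spread between these pools. Arrays of 1, 3 and 7 days with the same replicate number deviated together (r from 0.368 to 0.655), which was taken as pairing. The reported fit has no term for it, so its tests ignore the pairing, and the fit with replicate number as a block is an alternative.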

Additional observations from a re-analysis of the deposited data

Results flagged for a closer look

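Differences between treatment times passed the test for the brightest probes of 4 genes under the fit reported and for none of these under the fit of all probes. From 1 to 7 days of MgH2, the log2 ratio rose by 0.31 for *Ass1* and by 0.38 for its second probe, by 0.28 for *Asl*, by 0.33 for *Tdo2* and by 0.86 for *Got1*. In the comparisons added after the members' values had been seen, the difference of H2-water from 3 days of MgH2 was -0.36 for *Ass1* and -0.34 for its second probe. From 7 days it was -0.36 and -0.38 for *Ass1*, -0.25 for *Asl*, -0.36 for *Tdo2*, -0.86 for *Got1* and 0.25 for the second probe of *Otc*. Slide and regimen cannot be told apart in the comparisons with H2-water. The arrays of 1 and 7 days of MgH2 share no slide either.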

How the results depend on the processing

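The counts of called members were 3 at 1 day, 3 at 3 days, 6 at 7 days, 0 at 14 days and 4 for 7 days against 1 day. With the spread estimated over all probes, the choice made first, 0 were called at 1 day, 2 at 3 days, 4 at 7 days and 0 for 7 days against 1 day. Without a filter on dim probes the counts were 0 at 1 day and 0 for 7 days against 1 day. Centring arrays on their median gave 0 at 1 day, 2 at 7 days and 1 for 7 days against 1 day. With only the arrays compared in the fit, and with the methods' t-test after adjustment, 0 were called at 1, 3 and 7 days, and the former gave 0 for 7 days against 1 day, as did slide as a fixed block among the MgH2 arrays; these designs have fewer degrees of freedom. The replicate block gave 1 at 14 days (*Asl*, lower), 7 at 7 days and 5 for 7 days against 1 day, and slide as a random block also 1 at 14 days and 6 for 7 days against 1 day. Beside *Asl* at 3 and 14 days, *Cps1* at 7 days and *Arg1* for 7 days against 1 day, the replicate block changed no member's call. Normexp and loess gave 6 for 7 days against 1 day and reversed *Ass1* at 1 day to 0.18 (limma, adjusted P = 0.0309); the cause was not tested. With 1 array left out, the counts ran from 0 to 0 at 1 day, 1 to 2 at 3 days, 2 to 3 at 7 days, 0 to 2 for 7 days against 1 day and 0 to 0 in the other comparisons. Channel totals changed the count of the methods' t-test at 14 days, without adjustment, from 0 to 2. Over the members' values under all alternatives, 962 kept direction and side of the threshold, 46 that passed under neither changed sign (none beyond 0.16 in size), 110 lost and 11 gained the threshold and 1 reversed. This tally includes the deposited log ratio and the setting with outlier spots kept, which changed no member's call. The settings without a filter on dim probes and with the spread over all probes made the same calls, and both are counted.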
